A study of Arabidopsis thaliana with 4 samples.

Results

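The change in transcript levels from 2 h to 5 h after western flower thrips began to feed was followed in the above-ground parts of Arabidopsis thaliana. It was measured on RAFL clones, full-length Arabidopsis cDNAs spotted on glass, as the level on the 5 h array minus the level on the 2 h array. A level is the log2 ratio of fed over untreated plants on 1 array. A clone was a member when it had at least 1 spot of scanner flag 3, read as a good spot, on both arrays, and 695 of the 1182 clones on the array met this rule. Of the rest, 162 clones had such spots at 5 h only, 23 at 2 h only and 302 at neither time. Of the 695 members, 212 have a gene name here and 483 do not.

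All plants were wild type of the ecotype Columbia (Col-0), grown in soil for 21 days. Fed plants received 25 adult female thrips each, starved for 3 h beforehand, for 2 h or for 5 h inside a ventilated cylinder chamber, and their cDNA carried the red dye Cy5. Untreated plants carried no thrips, and their cDNA carried the green dye Cy3 on both arrays. Per the labels, replicate experiments were pooled before RNA extraction, so each array shows a pool of plants. There is 1 array at each time and no replicate array, so no p-value is given and the difference has no replicate check. The labels do not say whether both arrays shared the untreated RNA. Leaf identity could not be checked, since 0 of the 4 leaf markers looked for are named on the array. In pooled tissue, fewer cells of a type and less RNA per cell cannot be told apart.

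Thrips pierce single plant cells and empty them, and Arabidopsis answers largely through jasmonate, a hormone made from chloroplast lipids upon wounding. Jasmonate releases transcription factors of the MYC type from their repressors and so raises defence genes, among them enzymes that oxidise the hormone itself. In seedlings and wounded leaves, beta-glucosidases stored in bodies of the endoplasmic reticulum (ER bodies) take part in defence together with jacalin-type lectins and GDSL-type lipases. Feeding also costs sugars and light-harvesting tissue, and a set of plant transcripts is known to rise in darkness or under sugar shortage. Many leaf transcripts follow the time of day as well.

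The members spread widely around a middle that the normalisation described below sets near 0 on each array. The difference had a median of -0.05 log2, a middle 50% from -0.45 to 0.36 and an SD of 0.72 over clones. Each clone was printed as neighbouring spots, and 636 members had at least 2 good spots on each array. For these, the median SD over spot pairs, each pair being the same position on both arrays, was 0.14 log2, and the 90th percentile was 0.38. Neighbouring spots share their place on the slide, so this is the smallest technical error. The 80 control spots of bacteriophage lambda DNA and the 54 alpha tubulin spots had SDs of the difference of 0.40 and 0.38. The median difference of the 12 print blocks ran from -0.43 to 0.23, so a clone's place on the array moved with its value; its part in single results was not tested beyond the fit per print block given below.

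The zero point is the middle of the clones, taken at each clone's own brightness. Each array was normalised to it by loess, a curve fitted to the ratio against brightness. Relative to lambda DNA the median member lay 0.85 log2 higher at 5 h than at 2 h, and relative to alpha tubulin 0.35 higher. Every higher or lower value below is therefore relative to this loess zero, and above or below the median clone means above or below it. A level on 1 array also carries any fixed dye effect of the clone, which cancels only in the difference. Over the members the median level was -0.11 at 2 h and -0.09 at 5 h. The Cy5 detector gain was 58 at 2 h and 65 at 5 h per the file headers, and the Cy3 gain 69 on both, although the name of the 5 h Cy3 image gives 60. Both arrays lie on 1 slide, per the image names. The 2 h array lies in the upper position and the 5 h array in the lower. Time and slide position therefore cannot be told apart for any clone.

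A member was counted when its difference was at least 1 log2 (2-fold) and every good spot of one array lay beyond every good spot of the other, with at least 2 good spots on each. By this rule 39 of 636 members were higher at 5 h than at 2 h (6.13%) and 52 were lower (8.18%). Relative to lambda DNA the split was 239 higher and 7 lower, and relative to alpha tubulin 94 and 19. All 91 members at least 1 log2 in size among the 636 also had spots that did not overlap, so the size alone set the count. Of the 39 higher clones, 24 were above the median clone at both times, 13 crossed from below to above it, and 2 stayed below it. Of the 52 lower clones, 17 were above it at both times, 12 crossed from above to below, and 23 were below it at both times. No member was at least 2-fold above it at one time and at least 2-fold below it at the other (0 in each direction). Both directions thus held clones moving away from the median clone and clones moving toward it, and 117 of 695 members changed sign in all.

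**Figure D1:**
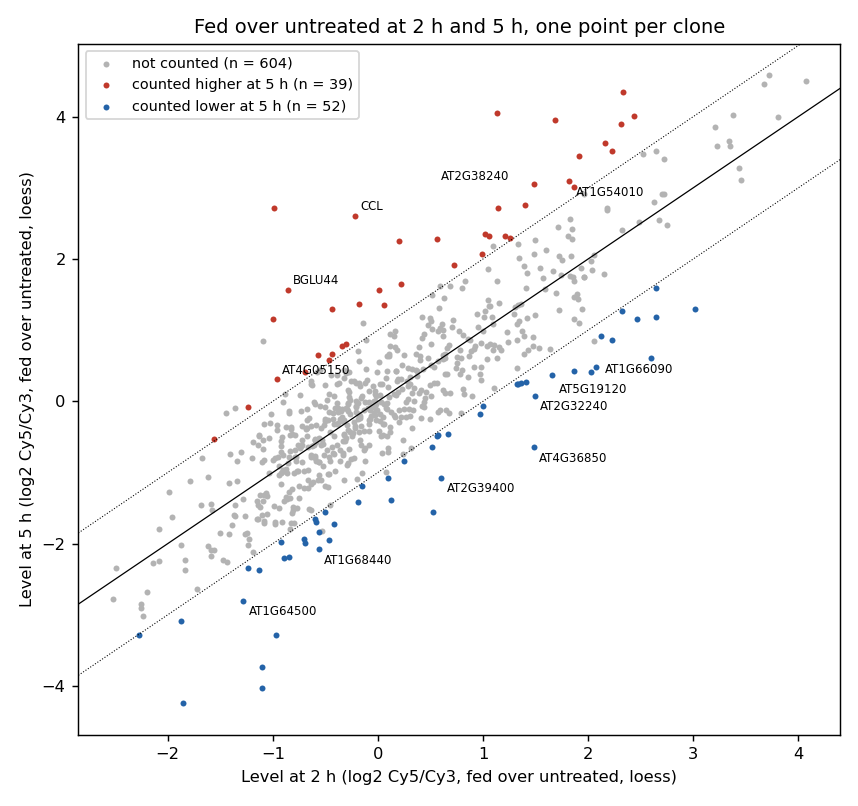
Level of each of the 695 clones at 2 h (x axis) and at 5 h (y axis), both as log2 of fed over untreated after loess, with equality as the solid line and 1 log2 as the dotted lines. Red points are the 39 clones counted higher at 5 h and blue points the 52 counted lower, and they flank the diagonal over its whole length.

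Among named genes, CCL showed the largest gain. CCL (CCR-like) is a gene whose short-lived transcript follows the circadian clock. It stood at -0.22 log2 at 2 h and 2.60 at 5 h, then at 1.57 at 10 h and 1.63 at 24 h. The difference was 2.82 log2, 7.06-fold, with an SD over spot pairs of 0.38, and the spots of the arrays lay far apart, at -0.43 and 0.00 at 2 h against 2.55 and 2.66 at 5 h. Its Cy5 foreground went from 500 at 2 h to 24188 at 5 h and its Cy3 foreground from 486 to 2070. Both dyes were thus brighter on the 5 h array, Cy5 more so. Raw foregrounds also carry spot brightness and detector gain, so whether untreated plants changed was not tested.

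BGLU44, a beta-glucosidase-family enzyme that can act on mannosides, came next. It stood at -0.86 log2 at 2 h, 1.57 at 5 h, 1.33 at 10 h and 0.11 at 24 h. The difference of 2.43 log2 (5.39-fold, SD over spot pairs 0.20) took it from below the median clone to well above it. Here the Cy3 foreground hardly moved, at 3490 and 3838, while Cy5 went from 2036 to 23249. With a loess per print block the difference was 1.52, still counted.

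Of the list of ER body and myrosinase-binding lectin genes, NAI2 and AT1G54010 were counted higher at 5 h. NAI2, needed to form ER bodies, stood at 1.21 log2 at 2 h and 2.32 at 5 h, a difference of 1.11 (2.16-fold, SD over spot pairs 0.03). AT1G54010, which encodes the GDSL-like lipase GLL23, stood at 1.82 and 3.09, a difference of 1.27 (2.42-fold, SD over spot pairs 0.29), and went on to 4.31 at 10 h. Both were already above the median clone at 2 h. AT1G54010 was not counted with a loess per print block (0.67), and NAI2 was not counted with median centring (0.88) or with all flags kept (0.96).

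AT2G38240, the jasmonate oxidase known as JOX4, turns jasmonate into a less active form. It stood at 1.49 log2 at 2 h and 3.06 at 5 h, and at 0.19 and 0.37 at 10 h and 24 h. The difference was 1.57 with an SD over spot pairs of 0.79. Untreated plants were not above background at either time, with Cy3 foregrounds of 130 and 145 against Cy5 foregrounds of 708 and 1584, so neither ratio has an upper limit and the difference has no bound. It was 0.34 with median centring and 2.40 with plain background subtraction. Of the related oxidase gene AT5G05600 (JOX2), the level was 3.72 at 2 h and 4.58 at 5 h, a difference of 0.86 that was not counted, though it was with a loess per print block and on the first printed spot alone.

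The other genes counted higher had differences of 1.08 to 1.27. DPE1, the plastid enzyme that rearranges short glucans during starch breakdown, stood at -0.44 log2 at 2 h, 0.67 at 5 h, 1.04 at 10 h and -0.77 at 24 h, so it was above the median clone at 5 h and 10 h only. ZW9, of the TRAF-like family, stood at 0.99 and 2.07 (difference 1.08, SD over spot pairs 0.26) and returned to 0.56 at 24 h. AT4G05150 went from -0.96 to 0.31, and AT5G45490, a P-loop ATPase-type gene, from -0.69 to 0.42; both were below the median clone again at 24 h, at -0.41 and -0.70. AT4G05150 was not counted with a loess per print block (0.94), DPE1 and AT5G45490 not with the mean of pixels (0.88 and 0.91), and ZW9 not on the last printed spot alone (0.89).

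Of the genes with lower levels at 5 h, AT4G36850 moved most. It encodes a membrane protein with PQ-loop repeats. It stood at 1.48 log2 at 2 h, -0.65 at 5 h, -2.61 at 10 h and -3.09 at 24 h, an ordered decline over the 4 arrays. The difference from 2 h to 5 h was -2.13 log2, 4.38-fold, with an SD over spot pairs of 0.20. Cy5 went from 4960 to 1343 and Cy3 from 1742 to 1216, so most of the drop in brightness lay in Cy5.

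AT3G15450, an aluminium-induced-type gene whose transcript is known to rise in darkness and under sugar shortage, lay far above the median clone at 2 h and nearer to it later. It stood at 2.65 log2 at 2 h, 1.59 at 5 h, 1.32 at 10 h and 1.37 at 24 h. The difference was -1.06 (SD over spot pairs 0.37). MCCA, a subunit of the mitochondrial carboxylase that breaks down leucine, stood at 1.36 at 2 h and 0.25 at 5 h (difference -1.11, SD over spot pairs 0.23). AT5G19120, of the aspartyl protease family, stood at 1.65 and 0.37 (difference -1.28, SD over spot pairs 0.38). These 3 genes share an early high level that was smaller by 5 h. With a loess per print block they were not counted, at -0.57, -0.66 and -0.72.

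Another 4 genes were above the median clone at 2 h and stood between 0.48 and -0.48 log2 at 5 h. AT1G66090, of the TIR-NBS class of immune receptor genes, stood at 2.07 log2 at 2 h and 0.48 at 5 h; untreated plants were not above background at 2 h, so the level there is a minimum and the gene was at least 3.02-fold lower at 5 h with this normalisation (a difference of -1.59, and of -1.10 with a loess per print block). AT2G32240 stood at 1.49 and 0.08 (difference -1.41, SD over spot pairs 0.13) and stayed near that, at -0.25 and -0.30, later on. AT3G57280 (FAX1), which exports fatty acids from plastids, stood at 0.97 and -0.17 (difference -1.15) and was not counted with a loess per print block (-0.57). AT3G09440, a heat shock cognate chaperone gene, stood at 0.56 and -0.48 (difference -1.04), with bright signals in both dyes, Cy5 going from 16916 to 13426; it was not counted with saturated spots left out (-0.91).

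AT2G39400, an alpha/beta hydrolase gene, stood at 0.60 at 2 h and -1.07 at 5 h, a difference of -1.68 (3.20-fold, SD over spot pairs 0.20). AT3G10720, a pectin methylesterase gene, went from 0.25 to -0.84 and on to -2.11 at 24 h; its difference of -1.10 was -0.93 with a loess per print block. AT2G18690, a gene for a predicted membrane protein, stood at 2.12 at 2 h, 0.92 at 5 h, 2.03 at 10 h and 0.84 at 24 h. The 2 h and 10 h arrays lie in the upper slide position and the 5 h and 24 h arrays in the lower. For this gene, as for every clone, time and slide position cannot be told apart in the difference. Its difference of -1.20 (SD over spot pairs 0.10) was -0.93 with the mean of pixels. The later course of these 3 genes differed. AT2G39400 held its level, AT3G10720 went lower, and AT2G18690 was back up at 10 h and lower again at 24 h.

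The last 2 genes counted lower, AT1G64500 and AT1G68440, were already below the median clone at 2 h. AT1G64500, of the glutaredoxin family, stood at -1.28 at 2 h, -2.81 at 5 h, -5.14 at 10 h and -1.87 at 24 h. Its difference of -1.53 log2 had an SD over spot pairs of 0.42, and its Cy5 foreground was 1664 and 1657 while Cy3 went from 3748 to 5717. Set against the median Cy5 change over members, which was upward, the near-equal foreground corresponds to a change of -1.16 log2 in Cy5. AT1G68440 stood at -0.56 and -2.08 (difference -1.52, SD over spot pairs 0.17), at -2.68 at 10 h and at -0.91 at 24 h, and was not counted with a loess per print block (-0.98).

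**Figure D2:**
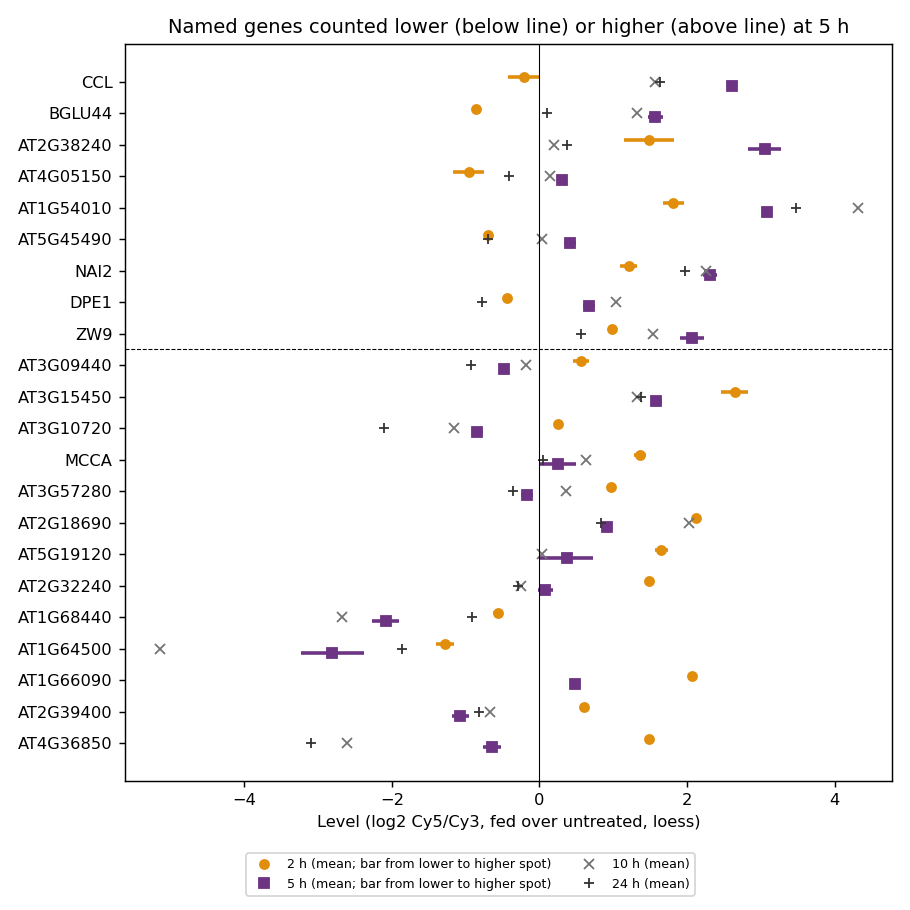
Level of each of the 22 named genes counted higher or lower at 5 h (rows, ordered by the difference), as log2 of fed over untreated after loess (x axis). Circles and squares are the means at 2 h and 5 h with a bar from the lower to the higher spot, and crosses and plus signs the means at 10 h and 24 h where measured; in no row do the bars of 2 h and 5 h overlap.

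The clones with the most extreme differences have no gene name here. The highest went from -0.98 log2 at 2 h to 2.72 at 5 h and 4.59 at 10 h, and stood at -1.74 at 24 h, a difference from 2 h to 5 h of 3.70 (13-fold). The lowest went from -1.11 to -4.03 and -6.99 and stood at -1.70 at 24 h, a difference of -2.92. Both followed the same outline, an early move that went further at 10 h and was gone or reversed at 24 h.

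The change in brightness was then taken for each dye alone. Each dye's change from 2 h to 5 h was centred on its median over members, and the SD over members was 1.19 log2 in Cy5 (fed) and 0.83 in Cy3 (untreated). The changes in both dyes moved together over the 695 clones (r = 0.80), which share the spot, the slide and the brightness of the clone. The difference in the ratio had r = 0.68 with the Cy5 change and r = 0.14 with the Cy3 change. It is built from both changes, so the wider Cy5 change goes with it more by construction. These values describe clones of the same arrays and do not place the change in fed or untreated plants. The share of all members that changed more in Cy5 than in Cy3 was not taken, so the counts that follow have no baseline. Of the 39 higher clones, 32 changed more in Cy5 than in Cy3, with medians of 1.56 in Cy5 and 0.00 in Cy3. Of the 52 lower clones, 45 changed more in Cy5, with medians of -1.54 and -0.38. In the remaining 7 clones of each direction the Cy3 change was at least as large as the Cy5 change. Whether the untreated plants themselves changed was not tested.

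**Figure D3:**
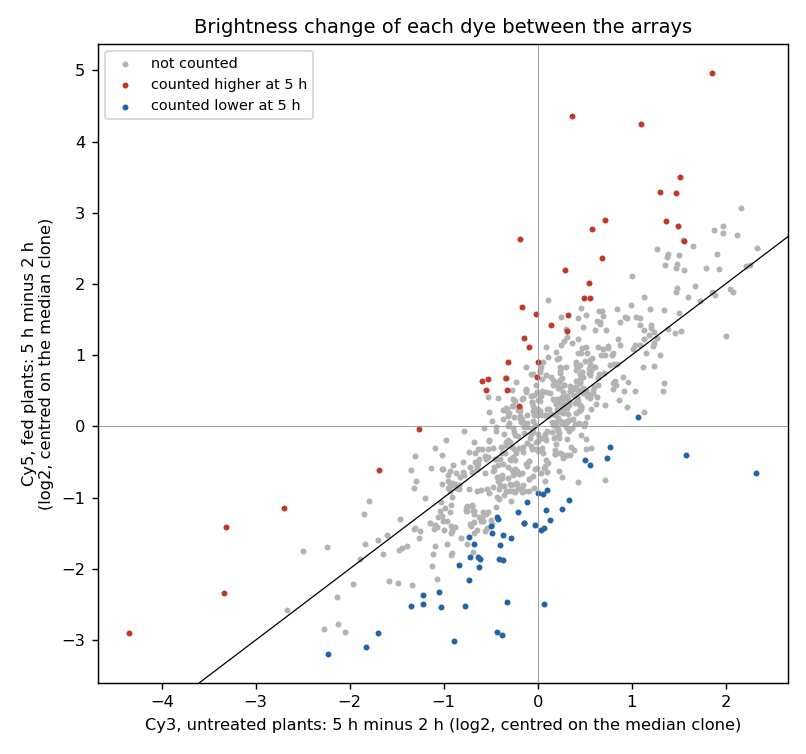
Brightness change from 2 h to 5 h in Cy3 (untreated plants, x axis) and in Cy5 (fed plants, y axis) for each clone, in log2 and centred on the median change over members, with equality as the line. The dyes move together (r = 0.80), and clones counted higher (red) or lower (blue) lie off the line mostly along the Cy5 axis. Cy5 changes are wider over all members (SD 1.19 against 0.83), so this does not place the change in fed or untreated plants.

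Gene lists by function gave small groups, because few list members are named on the array. The lists were chosen with earlier results of these data known, so their values are descriptions and no support for a pathway response. Over all members, 6.13% were counted higher and 8.18% lower, with a median of -0.05. In the list of ER body and myrosinase-binding lectin genes (the ER body list), all 6 measured genes were higher at 5 h, against 326 of 695 among all members. Their median difference was 0.97 (from 0.65 to 1.27), and 2 of them were counted. Besides NAI2 and AT1G54010, they are the glucosidases PYK10 (0.69, from -0.27 at 2 h to 0.42 at 5 h) and BGLU22 (0.98, on 1 spot at 2 h) and the lectins JAL34 (0.95, SD over spot pairs 0.82) and AT1G52000 (0.65, from 3.21 to 3.86), whose spots at 5 h had over 10% of pixels saturated. The list's median was 0.75 to 1.94 across the alternatives. BGLU21 and JAL33 of the list had no good spot at 2 h. PYK10 and BGLU22 are also root markers, as the 2 of the 7 root markers with a difference; their part as such was not tested.

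For jasmonate, the responsive genes were higher at 5 h in 5 of 6 measured cases, against 326 of 695 among all members. Their median was 0.61 and 0 were counted. Across the alternatives that keep the zero point 0 to 2 were counted. AT2G34930, a leucine-rich repeat gene, stood at 2.52 at 2 h and 3.47 at 5 h. The thionin gene THI2.1 went from -0.90 to -0.02 (difference 0.89, SD over spot pairs 0.05) and the TRAF-like gene AT3G28220 from 3.68 to 4.46 (0.78). FAMT, a farnesoic acid methyltransferase gene, had a difference of 0.44 and AT3G28270 of 0.32, while AT4G20830, a berberine bridge enzyme-like oxidase gene, had -0.46. With spots over 10% saturated left out, FAMT and AT3G28220 had no value at 5 h, and 3 of the other 4 were higher. The 1 synthesis gene measured, OPCL1, which activates jasmonate precursors for shortening, stayed near its 2 h level (1.86 and 1.75). PDF1.2 had no good spot at 2 h.

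Of the stress lists, the 3 measured cold and ABA genes KIN2, COR15A and COR47 had differences of 0.03, 0.27 and 0.38, and 0 were counted. COR15A had 1 good spot at 2 h and an SD over spots of 0.84 at 5 h, so it could not be counted. The detoxification genes AER, a reductase of reactive carbonyls, and ALDH7B4, an aldehyde dehydrogenase, had 0.83 each, with SDs over spot pairs of 0.32 and 0.06. In the calcium and transcription factor list STZ, a zinc finger repressor, had 0.80, with untreated plants not above background, EIN3 had 0.21 and the EF-hand gene AT4G27280 had -0.89, from 1.63 at 2 h to 0.74 at 5 h. The peroxidase gene AT5G64120 had 0.53 and the chitinase gene CHI 0.13. The early transcript of AT4G27280 was thus the 1 member of these lists, apart from AT1G64500, with a lower level at 5 h.

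Lists of lower genes had medians below 0 that depend on the zero point. The dark, sugar starvation and senescence list had a median of -0.54 over 4 genes, 2 of them counted lower (AT4G36850 and AT3G15450), and 0.30 relative to lambda DNA. FDH, formate dehydrogenase, and AT2G25510 of that list had -0.02 and 0.28. The cell wall and surface list had 8 of 11 genes lower at 5 h, 0 counted (2 lower with a loess per print block, 1 higher with plain background subtraction) and a median of -0.40, which was 0.45 relative to lambda DNA and -0.05 relative to alpha tubulin. AT1G29660, a GDSL lipase gene, had -0.82, the aspartyl protease gene AT1G66180 had -0.69, and ECS1 had 0.71, from -1.99 to -1.28. AT3G10720 and AT5G19120, a pectin methylesterase and an aspartyl protease gene counted lower above, are of the same kinds but are not on this list. In 3 of the 11 genes a dye was not above background. The chloroplast genes FUG1, a translation initiation factor, and AT1G73110 had -0.78 and -0.23. Of the cinnamoyl-CoA reductase gene CCR2, of lignin synthesis, the difference was 1.09, but only 1 spot was good at 2 h and the untreated signal was not above background, so it could not be counted.

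**Figure D4:**
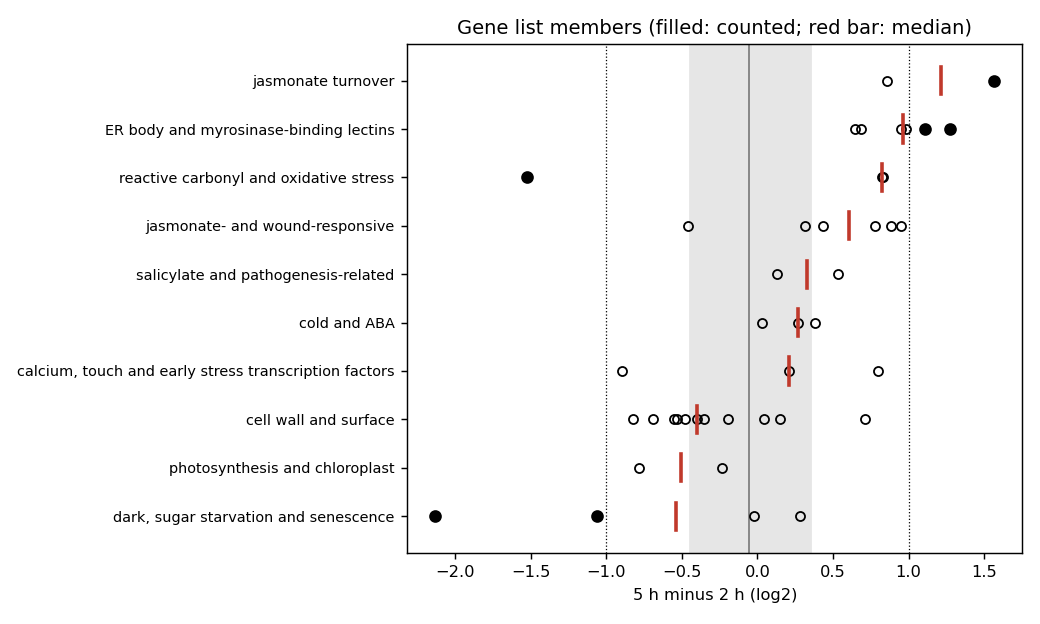
Difference of 5 h minus 2 h in log2 (x axis) for the measured members of each gene list with at least 2 such members (rows), filled where counted; red bars are list medians, the grey band is the middle 50% of all clones and dotted lines mark 1 log2. The ER body list lies above the band with 6 of 6 genes, and the cell wall and surface list lies mostly within or just below it.

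Members near the size limit show how the count turns on it. NAI2, DPE1 and ZW9 lay just inside at 1.11, 1.11 and 1.08, and BGLU22 and AT5G39670 just outside at 0.98 each, AT2G34930 and JAL34 at 0.95 each. On the lower side AT3G09440 lay just inside at -1.04, and AT4G24060 and AT5G16010 just outside at -0.97 and -0.92. These genes differ from each other by less than the SD of control spots. Past the limit in size but with 1 good spot on an array were the peroxidase gene AT2G37130 (1.94), CCR2 (1.09), AT3G22750 (-1.07) and the peroxidase gene AT5G19890 (-1.30).

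The same difference was taken between the 10 h and 24 h arrays, which share no array with the early pair. It was wider, with an SD of 1.03 over 652 clones against 0.72, and 80 of 603 clones were higher at 24 h (13.3%) and 49 lower (8.13%). Clones counted early were more often counted the other way late than the same way. Of the 34 early higher clones that could be counted late, 9 were lower at 24 h than at 10 h (26.5% of them, and 18.8% of the 48 late lower clones), and 3 were higher. Of all 564 clones countable in both pairs, 8.51% were lower late and 13.1% higher. Of the 44 early lower clones, 17 were higher at 24 h (38.6% of them, and 23.0% of the 74 late higher clones), and 1 was lower. Over 607 clones the early and late differences had r = -0.34 and a Spearman rho of -0.21. Over the 547 with every dye above background on the 4 arrays r was -0.25 and rho -0.17, so the relation over clones was weak. The 2 h and 10 h arrays lie in the upper position of their slides and the 5 h and 24 h arrays in the lower, so slide position runs the same way in both pairs.

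**Figure D5:**
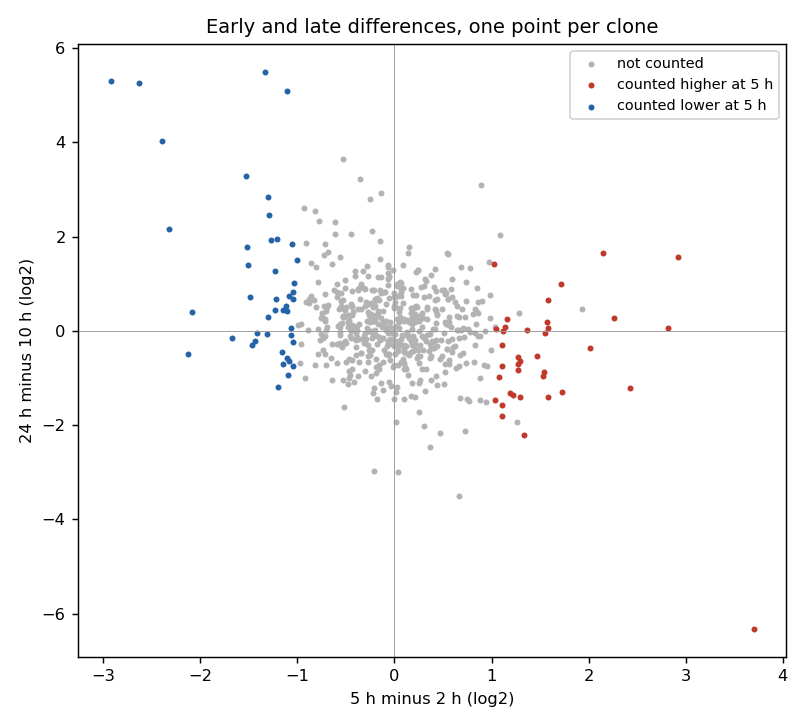
Early difference, 5 h minus 2 h (x axis), and late difference, 24 h minus 10 h (y axis), in log2 for the 607 clones with both. Clones counted lower early (blue) lie mostly above 0 late and clones counted higher early (red) mostly below, with r = -0.34 over all clones.

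The side of the median clone on which each clone lay at 5 h was followed to the later arrays. Of 37 clones counted higher at 5 h with both later values, 31 were above the median clone at 5 h, 10 h and 24 h (83.8% on 1 side at all 3 times). Of 44 clones counted lower with both later values, 30 were below it at all 3 times and 8 above it (86.4% on 1 side). Over all 607 members with both later values, 451 lay on 1 side at all 3 times (74.3%), so a large share did so whether counted or not. Each level carries any fixed dye effect of its clone, and the counted clones were chosen partly by their 5 h level. What these shares owe to either was not tested. AT4G05150, AT5G45490, DPE1 and the highest unnamed clone were among those that had changed side by 24 h.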

How the data were processed

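Above-ground Arabidopsis tissue was measured on 2-colour arrays of spotted cDNA clones; the arrays for 2 h and 5 h of feeding enter the main difference and those for 10 h and 24 h the comparison. Per the labels, scanning was done with a ScanArray Lite and quantification with ScanArray Express. The deposited scanner files give linear foreground and background intensity for every spot in each dye, and the percent of saturated pixels. The authors also deposited a value table on a natural log scale, with scale, centring and direction unstated; its columns had slopes of 0.988 and 0.984 on the natural log of scanner Cy5/Cy3 at 2 h and 5 h and medians of 0.305 and 1.20, and it served as an alternative.

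Median pixel intensities were background-corrected with normexp (offset 50) and normalised by loess within each array on good clone spots (R 4.3.3, limma 3.58.1; Python 3.11.15 for the rest), and spots were averaged per clone. A dye was above background when its foreground exceeded the background by 2 background SD in at least 50% of a clone's spots. A bound sets a dim dye at the lowest signal above background on that array, or at its own where higher. The counting rule was run on simulated data in which the changes put in were all larger than the 1 log2 limit. These data held no effect of print block or slide position on the difference. The rule was therefore not tested near the limit or under such effects. Median foregrounds of members were 1124 (Cy3) and 1410 (Cy5) at 2 h and 1480 and 2641 at 5 h, and 657 of 695 members had both dyes above background on both arrays; 2 and 4 Cy5 spots were at the ceiling and were kept. Precision is limited by having 1 array at each time. Fed plants were in Cy5 on both arrays, so a fixed dye effect of a clone cancels in the difference but stays in each level.

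Names came from the platform's gene table, updated by identifier to TAIR10.1 (415 of 416 probes with a symbol matched; 415 clones are named). Long cDNA probes of close relatives (KIN1 and KIN2, BGLU21 and BGLU22) may share signal. Named genes are all counted clones with a gene name, at most 20 a direction, and every measured member of the lists. The members and lists were chosen with earlier results of these data known. The lists of jasmonate signalling, circadian clock, glucosinolate, heat shock and housekeeping genes had 0 named members on the array. No sequence is printed, since none was in the tables used here.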

Additional observations from a re-analysis of the deposited data

Results flagged for a closer look

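Spots that carry gene names directly, in place of a clone name, lie outside the members, and they were set apart because 3 of these 9 genes had good spots on both arrays while 0 of 26 negative control spots had. RD29A, a dehydration and cold gene driven by DREB-type factors and ABA, stood at 0.21 log2 at 2 h, 1.51 at 5 h, 1.77 at 10 h and 0.12 at 24 h. Its difference from 2 h to 5 h was 1.3 log2 (2.47-fold, SD over spot pairs 0.04), above 96.8% of the members, with Cy5 going from 599 to 3848 and Cy3 from 484 to 810. It was 1.27 to 2.68 across the alternatives. The cold and ABA clones KIN2, COR15A and COR47 had differences of 0.03 to 0.38 over the same interval. The ethylene receptor gene ETR1 had a difference of -0.19 and ERD8, an early dehydration gene, of -0.46.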

How the results depend on the processing

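Of 22 named genes, 6 (CCL, BGLU44, AT4G36850, AT2G39400, AT2G32240 and AT1G64500) were counted in the same direction under all 11 alternatives that keep the zero point and the size; the others were lost under 1 to 3 of them, most often under loess per print block. The count of higher clones, 39, was 239 relative to lambda DNA, 94 relative to alpha tubulin, 408 in the deposited value table and 60 with all flags kept; it was 17 at a size of 1.5 log2 and 122 at 0.5. The count of lower clones, 52, was 7, 19 and 6 under the first 3 of these, and 14 and 141 at the other sizes. These scalings move the zero point by construction. In the deposited value table AT3G09440 stood at 0.22 and AT3G15450 at 0.0015 in place of values below 0. Size alone with 1 or more spots, chosen after seeing the data, gave 45 and 55. The SD over clones moved by less than the spot-pair spread under every alternative that gives it. Both counts were within 1.5 times under the other alternatives run. No paired analysis was possible because the difference rests on 1 array per time point. Dim untreated signal limits AT2G38240, AT1G66090, STZ and CCR2.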
